A study of Mus musculus with 4 samples.

Results

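The genes of major histocompatibility complex (MHC) class I and of its peptide loading were compared between deprived and non-deprived mouse visual cortex. The set held 10 genes: B2m, H2-K1, H2-D1, H2-T23, H2-M3, Tap1, Tap2, Tapbp, Psmb8 and Psmb9. It was taken from the array by gene symbol, as all probe sets that the platform's annotation table assigns to 1 of these symbols alone. This gave 17 of the 12488 probe sets on the array, and they covered 9 of the 10 genes, out of 8252 genes with a probe set of their own. H2-T23 had no probe set of its own. A further 11 probe sets that list several symbols, 4 of them with a member among the symbols, were kept apart.

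The samples came from wild-type C57Bl6 mice. A group of 5 animals lived in darkness from birth, had 1 eye removed on postnatal day 42, and were killed on postnatal day 46 after 4 days with alternating light and dark. Cortex on the side opposite the removed eye is called deprived, and cortex on the same side is called non-deprived, so the reference tissue came from animals that were dark reared and had also lost an eye. Tissue was pooled within a side, per the series' design text, and 2 deprived and 2 non-deprived samples were each measured on 1 array; nothing in the labels says how the mice were divided, so p-values measure only the spread between these arrays.

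MHC class I molecules are cell-surface proteins made of a heavy chain, encoded in the mouse by H2 genes, and the light chain beta-2-microglobulin, encoded by B2m. Proteasomes cut proteins into peptides, the TAP transporter carries these into the endoplasmic reticulum, and tapasin holds the empty heavy chain next to TAP until a peptide binds. Interferon signalling raises most of these genes at once in many cells. In the brain, class I genes are expressed by neurons as well as by glia and endothelium. They have been studied in mouse visual cortex as genes that respond to neuronal activity and that limit the shift of cortical responses towards the open eye.

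All 9 members with a RefSeq promoter window on the GRCm38.p6 assembly were searched for motifs known from class I promoters; Tap2 was not among them. A window runs from 250 bases before to 50 bases after the annotated start site, and each motif was searched on both strands. The windows of H2-K1, H2-D1, B2m and Tap1 are printed because they serve the heavy chains, the light chain and the transporter described below. Capitals mark the motif matches. They are GGGATTCCC (the kappaB site of enhancer A), AAGTGAAAC (the class I interferon response element, which stands as GTTTCACTT in these windows), GAAANNGAA (the general interferon-stimulated response element), TGACG (the core of the X2 or cyclic AMP response element) and CCAAT (the CCAAT box), each also in its reverse complement. No matches overlap in the windows printed. The printed H2-K1 window lies at chr17:34000298-34000597 on the minus strand. That of H2-D1 lies at chr17:35262844-35263143, that of B2m at chr2:122147437-122147736 and that of Tap1 at chr17:34187306-34187605, all on the plus strand. H2-K1 has a further annotated window, at chr17:34000284-34000583, which is not printed. It carries the same motifs in the same order, with the enhancer A motif at -124 instead of -110 bases from the start site.
H2-K1: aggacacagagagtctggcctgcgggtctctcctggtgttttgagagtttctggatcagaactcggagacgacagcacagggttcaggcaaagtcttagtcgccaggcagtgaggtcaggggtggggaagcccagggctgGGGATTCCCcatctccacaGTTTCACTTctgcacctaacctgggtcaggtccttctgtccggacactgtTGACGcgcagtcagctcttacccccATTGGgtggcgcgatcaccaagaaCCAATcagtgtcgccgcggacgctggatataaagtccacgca
H2-D1: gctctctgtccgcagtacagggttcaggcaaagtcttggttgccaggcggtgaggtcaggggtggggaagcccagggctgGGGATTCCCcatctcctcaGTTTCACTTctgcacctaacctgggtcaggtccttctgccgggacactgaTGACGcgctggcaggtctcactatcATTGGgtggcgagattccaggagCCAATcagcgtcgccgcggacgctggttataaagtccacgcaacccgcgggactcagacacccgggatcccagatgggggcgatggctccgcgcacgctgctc
B2m: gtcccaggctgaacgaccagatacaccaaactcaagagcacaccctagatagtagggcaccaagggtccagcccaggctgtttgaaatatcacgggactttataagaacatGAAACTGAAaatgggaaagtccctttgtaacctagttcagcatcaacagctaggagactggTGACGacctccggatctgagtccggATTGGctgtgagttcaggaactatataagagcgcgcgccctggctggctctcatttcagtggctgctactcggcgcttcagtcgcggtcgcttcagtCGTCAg
Tap1: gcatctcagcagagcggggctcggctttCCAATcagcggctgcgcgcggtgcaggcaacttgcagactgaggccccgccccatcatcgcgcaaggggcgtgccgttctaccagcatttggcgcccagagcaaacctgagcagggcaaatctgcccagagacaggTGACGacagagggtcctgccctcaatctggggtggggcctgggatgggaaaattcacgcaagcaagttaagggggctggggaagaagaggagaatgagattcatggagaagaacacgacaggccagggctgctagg

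The H2-K1 and H2-D1 windows were 88.3% identical over 239 bases aligned with free end gaps, and they carried the same motifs in the same order. The enhancer A motif GGGATTCCC was found in 0.353% of the 32851 windows of all genes, and among the 9 members searched only in H2-K1 and H2-D1. The class I element AAGTGAAAC was in 0.399% of all windows and in 3 members, H2-K1, H2-D1 and H2-M3. B2m and H2-T23 carried GAAANNGAA, found in 8.56% of all windows. TGACG was common, in 20.8% of all windows and in 6 of the 9 members, and so was the CCAAT box, in 37.4% of all windows and in 8 of the 9. Psmb9 and Tap1 start next to each other on opposite strands, and their windows share 275 bases, so both motif matches of Psmb9 are those printed for Tap1. Psmb9, Tap1, Psmb8 and Tap2 lie side by side on chromosome 17 with 0 other annotated genes between them, 9 of the 10 members lie on this chromosome, and B2m lies on chromosome 2.

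**Figure D1:**
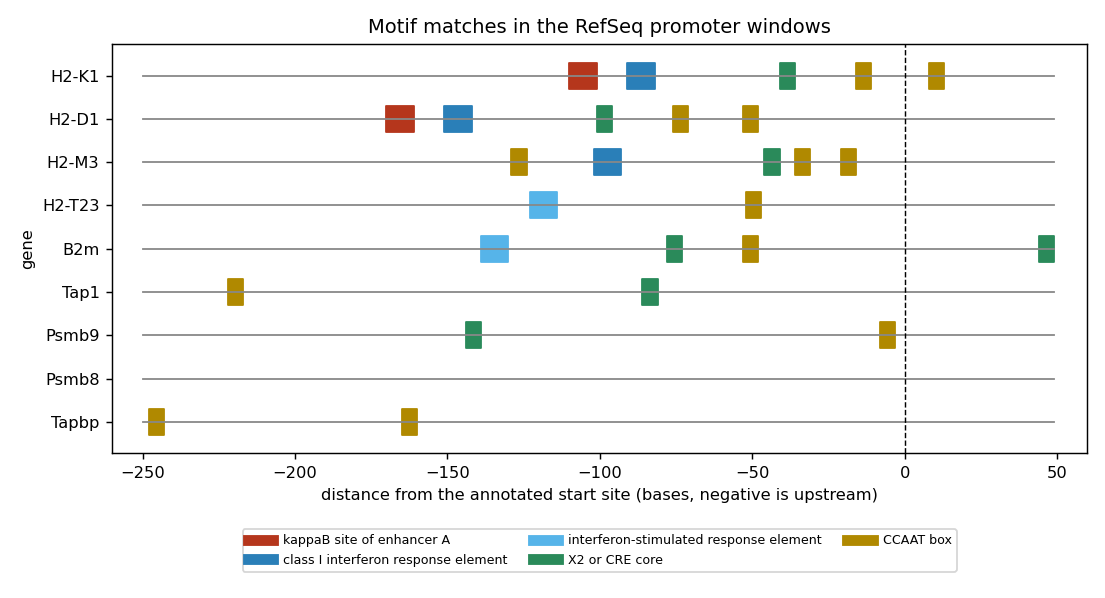
Motif matches on either strand in the promoter windows of 9 member genes, by distance in bases from the annotated start site (dashed line). For H2-K1 the printed window is shown. H2-K1 and H2-D1 carry the same run of motifs, at different distances from their annotated starts, and Psmb8 carries none of the 5 motifs.

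The values are MAS5 signals, in arbitrary units, 1 per probe set and array. Median signals lay between 189.9 and 246 on the 4 arrays. Deprived array 1 stood slightly apart: its mean correlation with the other 3 arrays was 0.91, against 0.93 for each of the others, and it gave the highest signal for 50.5% of the 4964 probe sets below the filter described next. Actin's 5′ probe set over its 3′ probe set, a measure of how intact the RNA was, gave 0.544 and 0.463 for deprived against 0.638 and 0.632 for non-deprived cortex, and that of Gapdh 0.745 and 0.689 against 0.875 and 1.07. Both ratios were lower on both deprived arrays, and their part in the results below was not tested.

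For the test, 60.6 was added to each scaled signal and log2 was taken, and probe sets with a mean signal under 142.9 were left out, which kept 7458 probe sets. limma compared deprived with non-deprived over all of them, two-sided, with Benjamini-Hochberg adjustment and a threshold of 0.05. This main fit did not pair the same-numbered arrays. Of the 17 member probe sets 10 were tested, for the 6 genes B2m, H2-K1, H2-D1, H2-M3, Tap1 and Tapbp. The other 7 were too dim, and they included the only probe sets of Tap2, Psmb8 and Psmb9. Because of the added 60.6, fold changes of dim probe sets are understated. An exact permutation test of 2 arrays against 2 cannot give a two-sided p below 0.333.

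**Figure D2:**
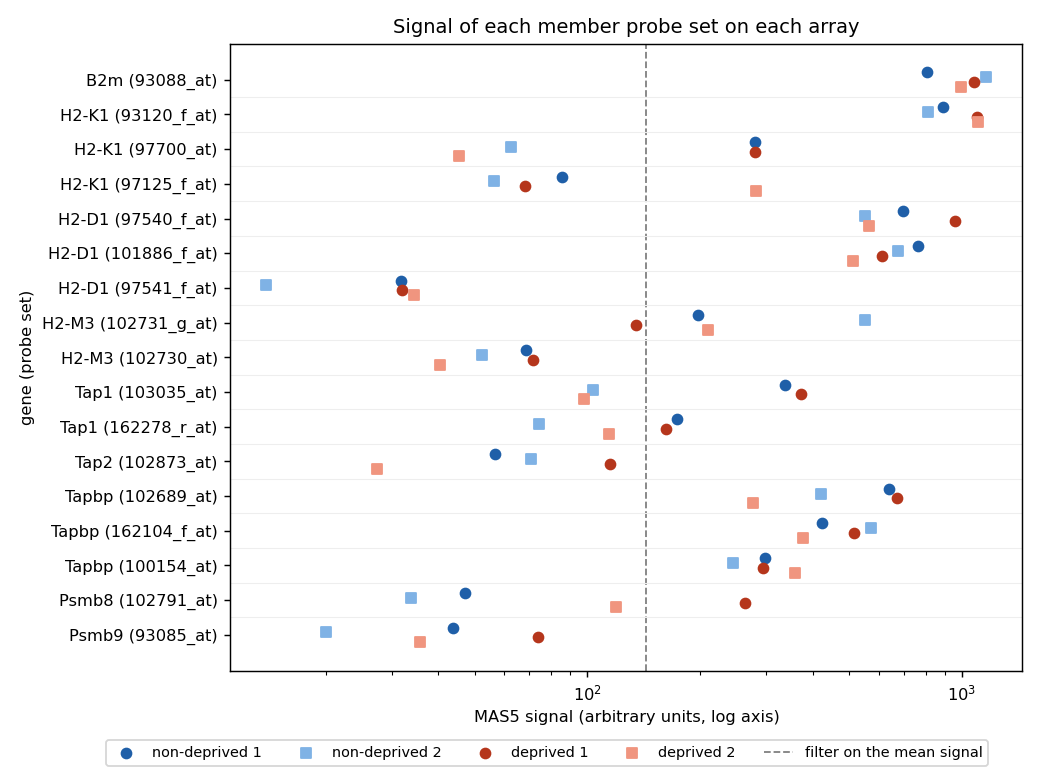
MAS5 signal (log axis) of the 17 probe sets that name 1 member alone, with 1 point per array and the filter on the mean signal as a dashed line. The deprived and non-deprived arrays are mixed for most probe sets. Both arrays numbered 1 lie above both arrays numbered 2 for H2-K1 97700_at, H2-D1 97540_f_at, H2-M3 102730_at, Tapbp 102689_at and Psmb9 93085_at. The same holds for Tap1 103035_at and Tap1 162278_r_at. The share of all probe sets with this order was not counted. The 25th percentile of all signals was also higher on the arrays numbered 1 (72.2 and 85.1) than on those numbered 2 (53.8 and 51.0).

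No member probe set passed the threshold. In limma 0 of the 10 tested member probe sets had an adjusted p under 0.05 and 0 had an unadjusted p under 0.05; over all tested probe sets 0.107% passed the adjusted and 5.43% the unadjusted threshold. With the replicate number as a block, which moved the count over all probe sets from 8 to 40, or 0.536%, still 0 members passed the adjusted threshold, and 1 had an unadjusted p under 0.05 (9.25% of all tested probe sets). In the main fit 0 of the 10 were at least 1.5-fold apart with 1 sign in each of the 4 pairings of a deprived with a non-deprived array, as were 1.9% of all tested probe sets. Of the 10, 5 were lower and 5 higher in the deprived cortex. Their median log2 difference was -0.04, beside 0.001 over all 7458 probe sets. The standard errors of the members ran from 0.19 to 0.72.

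B2m, the light chain that every class I heavy chain of this set binds, had signals of 808 and 1163 on the non-deprived arrays and 1077 and 994 on the deprived arrays. The deprived values lay between the non-deprived ones. Its log2 difference was 0.09 ± 0.21 (SE, adjusted p = 0.999 in limma), with a 95% interval from -0.38 to 0.56, or from 1.30-fold lower to 1.47-fold higher. Differences within these bounds are compatible with the values of these arrays, and the bounds are not a limit of detection.

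The classical heavy chain genes H2-K1 and H2-D1, which present peptides to CD8+ T cells, had 6 probe sets between them, of which 4 were tested. The H2-K1 probe set 93120_f_at had signals of 893 and 810 in non-deprived and 1098 and 1106 in deprived cortex. Both deprived arrays were higher than both non-deprived arrays, by 0.28 to 0.42 (log2) in the 4 pairs. The log2 difference was 0.35 ± 0.19 (SE), 1.28-fold, with an adjusted p of 0.970 in limma and a 95% interval from -0.06 to 0.77. It was the smallest p among the members, 0.091 unadjusted. The H2-D1 probe set 101886_f_at went the other way, with signals of 762 and 676 in non-deprived and 613 and 513 in deprived cortex. Its groups did not overlap either, and its log2 difference was -0.32 ± 0.23 (SE, adjusted p = 0.999 in limma). These were the 2 of 10 tested member probe sets whose groups did not overlap; over all tested probe sets 32.2% did not overlap, 15.1% with the deprived arrays higher and 17.1% with them lower.

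Other probe sets of the same heavy chain genes gave other pictures. H2-D1 97540_f_at had 694 and 551 in non-deprived and 956.9 and 564.2 in deprived cortex. These groups overlapped, with both arrays numbered 1 above both arrays numbered 2. The log2 difference was 0.23 ± 0.27 (SE, adjusted p = 0.999 in limma), opposite in sign to that of 101886_f_at. H2-K1 97700_at had 280.0 and 62.4 in non-deprived and 280.1 and 45.3 in deprived cortex. Here both arrays numbered 1 were high and both arrays numbered 2 low, and the log2 difference was -0.11 ± 0.72 (SE, adjusted p = 0.999). The dim H2-K1 97125_f_at had 85.4 and 56.2 in non-deprived and 68.2 and 282.5 in deprived cortex, with deprived array 2 alone high. The dim H2-D1 97541_f_at had 31.8 and 13.9 in non-deprived and 32 and 34.5 in deprived cortex, with the lowest deprived value barely above the highest non-deprived one. A name ending in _f_at marks, on this type of array, a probe set that can read several members of a sequence family, and 5 of these 6 probe sets carry it. Their signals may therefore mix H2-K1, H2-D1 and related transcripts, and the assignment to 1 gene is uncertain.

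The non-classical heavy chain gene H2-M3, whose product presents N-formylated peptides, had the lowest log2 difference of the tested members. Its probe set 102731_g_at had 197.9 and 552 in non-deprived and 134.4 and 210.3 in deprived cortex. Non-deprived array 2 stood above the other 3 arrays, and the groups overlapped. The log2 difference was -0.79 ± 0.47 (SE, adjusted p = 0.984 in limma), and it was -0.17 without non-deprived array 2. This was the member with an unadjusted p under 0.05 in the blocked fit (0.048, adjusted p = 0.531). The other H2-M3 probe set, 102730_at, was below the filter, with 68.5 and 52.4 in non-deprived and 71.6 and 40.5 in deprived cortex.

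H2-T23 encodes Qa-1, the mouse heavy chain that is recognised by the CD94/NKG2A receptor of natural killer cells. It was read by 2 probe sets, each together with other genes. The probe set 98472_at, which lists H2-T23 and H2-T-ps, had 243.4 and 184.1 in non-deprived and 405.5 and 168.7 in deprived cortex. Deprived array 1 alone was high, and the log2 difference was 0.26 ± 0.44 (SE, adjusted p = 0.999 in limma). The probe set 102161_f_at lists 10 symbols, among them H2-K1, H2-D1 and H2-T23, and had 406.7 and 391.1 in non-deprived and 96.8 and 366.5 in deprived cortex. Both deprived arrays were lower, deprived array 2 by no more than 0.13 (log2), so the log2 difference of -0.83 ± 0.45 (SE, adjusted p = 0.972) came mainly from deprived array 1.

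The peptide transporter is a dimer of the products of Tap1 and Tap2. Tap1 103035_at had 337.1 and 103.6 in non-deprived and 372.7 and 97.7 in deprived cortex. As for H2-K1 97700_at, both arrays numbered 1 were high and both arrays numbered 2 low, and within the same-numbered pairs the log2 differences were 0.12 and -0.05. The log2 difference over all arrays was 0.04 ± 0.59 (SE, adjusted p = 0.999 in limma), with a 95% interval from -1.25 to 1.32. The dimmer Tap1 162278_r_at had 173.3 and 74.2 in non-deprived and 161.7 and 114.3 in deprived cortex, again with the higher value of each side on the array numbered 1. Tap2 102873_at was below the filter, with 56.5 and 70.8 in non-deprived and 114.7 and 27.4 in deprived cortex; both the highest and the lowest value came from a deprived array.

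Tapbp encodes tapasin, which bridges the heavy chain and TAP, and it was the only member with 3 tested probe sets. Tapbp 102689_at had 640.2 and 419.3 in non-deprived and 671.9 and 276 in deprived cortex, with both arrays numbered 1 above both arrays numbered 2. Tapbp 162104_f_at had 423.6 and 573 in non-deprived and 515.2 and 377.1 in deprived cortex. Tapbp 100154_at had 298.8 and 245.3 in non-deprived and 295.2 and 359.1 in deprived cortex. The groups overlapped at all 3 probe sets, whose log2 differences were -0.22 ± 0.36, -0.14 ± 0.28 and 0.22 ± 0.33 (SE, adjusted p = 0.999 for each in limma). None moved by more than its standard error, and they differed in sign.

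**Figure D3:**
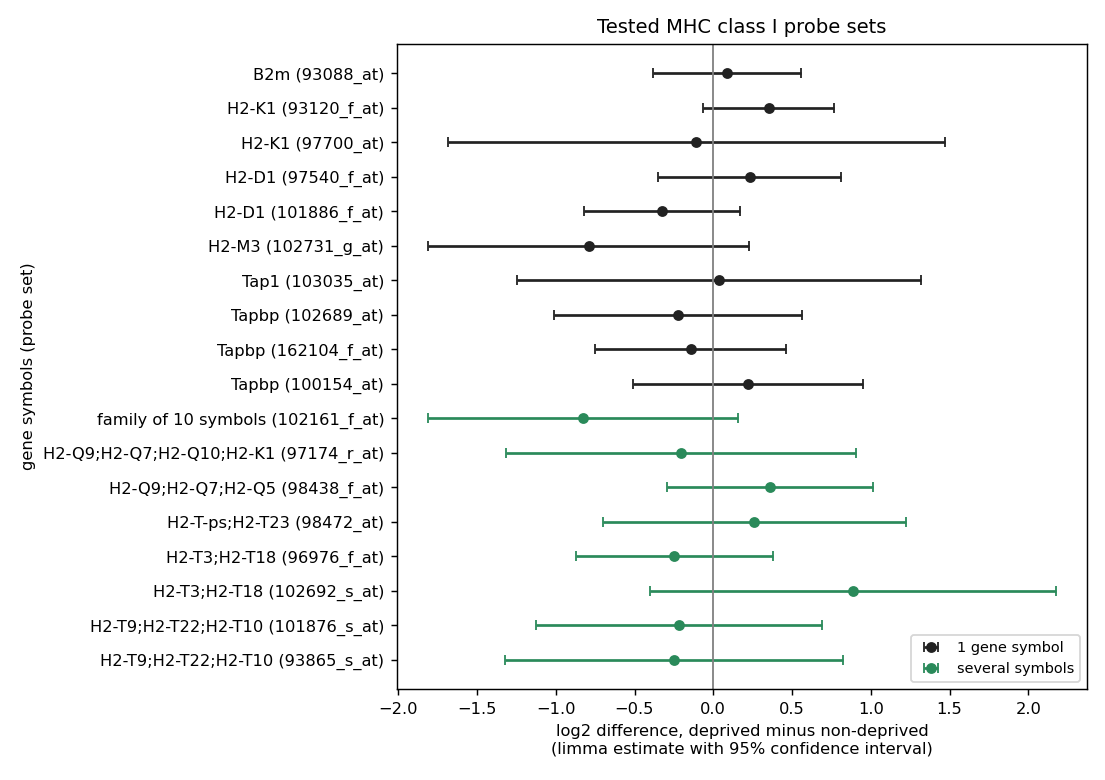
Log2 difference of deprived minus non-deprived cortex for the 10 tested probe sets of 1 member (black) and the 8 tested probe sets with several symbols (green), as limma estimates with 95% confidence intervals. The interval of every probe set includes 0, and it is narrowest for H2-K1 93120_f_at and widest for H2-K1 97700_at among the black points.

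Psmb8 and Psmb9 encode catalytic subunits that replace the standard ones in the immunoproteasome, a form induced by interferon that yields peptides suited to class I. Psmb8 102791_at had 47 and 33.9 in non-deprived and 263.2 and 118.9 in deprived cortex. Both deprived arrays were higher than both non-deprived arrays, by 0.74 to 1.78 (log2) in the 4 pairs. The mean signal was below the filter, so the probe set was not tested. In the limma fit without a filter its log2 difference was 1.26 ± 0.52 (SE), with an unadjusted p of 0.031 and an adjusted p of 1.00. It was the only one of the 17 member probe sets with an unadjusted p under 0.05 in that fit, where 4.2% of all probe sets had one and 1.64% had one with the deprived arrays higher. It was also the only one at least 1.5-fold apart in the same direction in all 4 pairs, as were 2.1% of all probe sets, and 0.684% with the deprived arrays higher. The higher of its deprived values came from deprived array 1, which read high for many dim probe sets; with deprived array 2 alone the log2 differences were 0.74 and 0.93. Psmb9 93085_at had 43.7 and 20 in non-deprived and 73.7 and 35.8 in deprived cortex, also below the filter and with overlapping groups.

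Without the filter on dim probe sets 0 of the 17 member probe sets passed the adjusted threshold in limma, beside 0.0966% of all 12422 probe sets that are not controls. Of the 7 member probe sets below the filter, 4 had their highest signal on deprived array 1, near the 50.5% of all probe sets below the filter, and so had 4 of the 10 tested ones, beside 31.9% of all tested probe sets. The median difference of the 10 tested member probe sets turned with the deprived array. It was 0.09 and 0.31 (log2) for deprived array 1 against non-deprived arrays 1 and 2, and -0.21 and -0.22 for deprived array 2 against the same arrays. The same medians over all 7458 probe sets lay between -0.05 and 0.02.

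**Figure D4:**
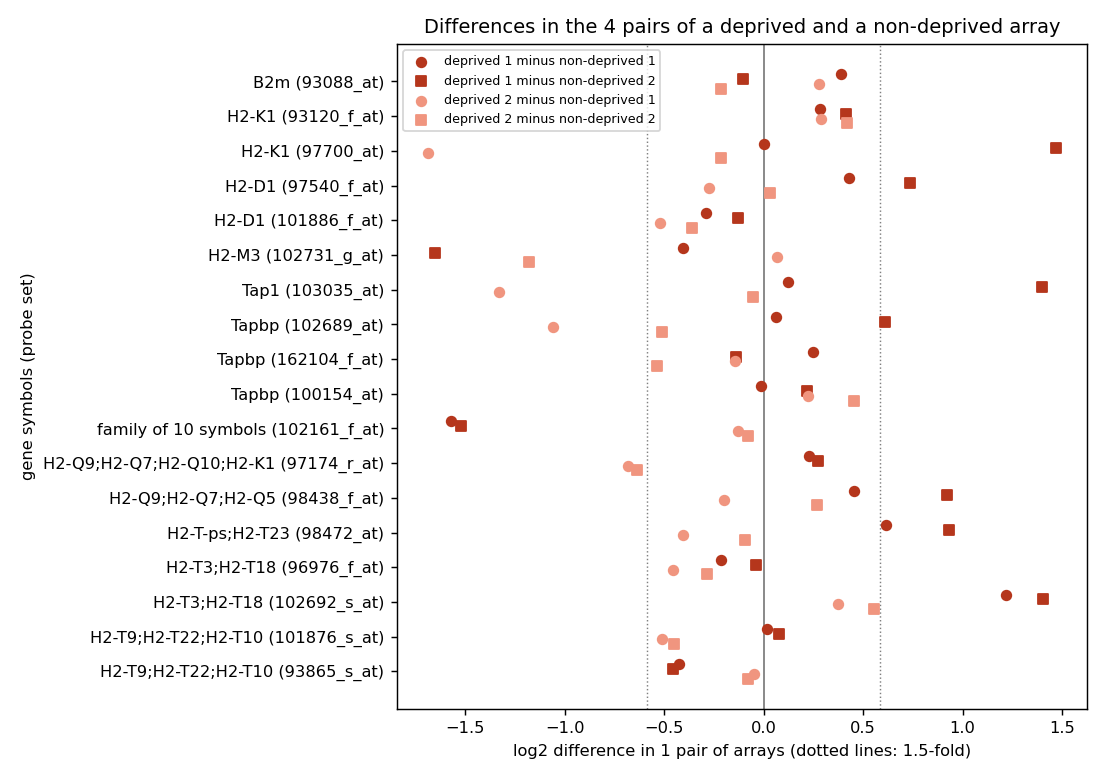
Log2 differences for every pairing of 1 deprived with 1 non-deprived array (dark red for deprived array 1, light red for deprived array 2, circles for non-deprived array 1, squares for non-deprived array 2), with dotted lines at 1.5-fold. H2-K1 93120_f_at keeps its sign and size in all pairs, whereas H2-K1 97700_at and Tap1 103035_at are near 0 within the same-numbered pairs and far from 0 in the crossed ones.

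The probe sets that list several H2 symbols without a member numbered 7, of which 5 were tested, and none passed the threshold in limma. A pair of them reads H2-T3 and H2-T18, thymus leukaemia antigen genes. H2-T3;H2-T18 102692_s_at had 91.2 and 73.2 in non-deprived and 293.2 and 135.8 in deprived cortex, a log2 difference of 0.89 ± 0.59 (SE, adjusted p = 0.991). H2-T3;H2-T18 96976_f_at had 456.6 and 398.2 in non-deprived and 385.9 and 316 in deprived cortex, a log2 difference of -0.25 ± 0.29 (SE, adjusted p = 0.999). The groups did not overlap at either probe set, in opposite directions, but 102692_s_at reached the filter through the deprived arrays alone (means of 214.5 and 82.2). The pair for H2-T9, H2-T22 and H2-T10 gave -0.22 ± 0.42 and -0.25 ± 0.49 (SE), and that for H2-Q9, H2-Q7 and H2-Q5 gave 0.36 ± 0.30. The remaining probe set with a tested signal, 97174_r_at, lists H2-K1 with H2-Q7, H2-Q9 and H2-Q10 and gave -0.20 ± 0.51. Over the 8 tested probe sets with several symbols the median log2 difference was -0.21, with 5 lower and 3 higher, and 4 of the 8, 102692_s_at among them, had groups that did not overlap, beside the 32.2% of all probe sets. The 3 too dim to test were H2-K2;H2-Q2 97173_f_at, 95773_at, which lists H2-D1 among 5 symbols, and the class II pair H2-DMb2;H2-DMb1 98034_at, and each had its highest signal on deprived array 1.

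The wider pathway was read from lists of known genes, with each gene represented by its brightest tested probe set. In limma 0 of the 53 tested genes of these lists passed the threshold of 0.05 in either direction, beside 0.107% of all tested probe sets, 0 passed it with the replicate block, beside 0.536%, and 0 had an unadjusted p under 0.05, beside 5.43%. The groups did not overlap for 20 of the 53, or 37.7%, beside 32.2% of all tested probe sets. For 7 of the 53, H2-M1, Uggt1, Isg15, Gbp3, Ifitm2, Pirb and H2-Eb1, the mean signal reached the filter in 1 group alone. They were tested only because of the group in which they were high, and their values are descriptions. Of these 7, 5 are among the 20 whose groups did not overlap, and the part of the filter in that share was not tested. The receptors of class I and their adaptors had 3 tested genes of 13 on the array. Pirb, which encodes an inhibitory receptor for class I present on neurons and immune cells, had 227 and 204.3 in non-deprived and 77.2 and 101.8 in deprived cortex. Both deprived arrays were lower, and only the non-deprived mean reached the filter. The log2 difference was -0.88 ± 0.54 (SE, adjusted p = 0.987 in limma). Klrc1, which encodes the NKG2A chain of the receptor for Qa-1, had 185 and 137.4 in non-deprived and 377.5 and 197.6 in deprived cortex, a log2 difference of 0.61 ± 0.44 (adjusted p = 0.999). Tyrobp, an adaptor of activating receptors, gave 0.31 ± 0.34 with overlapping groups. Cd247, the CD3 zeta chain, which class I signalling in neurons has been tied to, was too dim to test.

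Among 14 tested regulators of class I transcription, 6 were higher and 8 lower, with a median log2 difference of -0.13. Those with the smallest p were the interferon signalling kinase gene Jak2 (0.61 ± 0.36), the interferon regulatory factor genes Irf8 (0.70 ± 0.49) and Irf1 (0.55 ± 0.39), and the type I interferon receptor gene Ifnar1 (-0.60 ± 0.46). These are log2 differences with SE, with adjusted p of 0.984 for Jak2 and 0.999 for the other 3 in limma. Jak2, Irf8 and Irf1 were higher on both deprived arrays, and Ifnar1 and the NF-kappaB subunit gene Rela (-0.17 ± 0.17) were lower on both. These were the 5 of 14 regulators whose groups did not overlap, beside 32.2% of all tested probe sets. Irf1, which binds interferon response elements, had 156.6 and 214.8 in non-deprived and 310.3 and 286.4 in deprived cortex.

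Of 20 interferon-induced genes on the array 14 were below the filter, among them Ifit1, Mx1, Cxcl10 and Gbp2. The 6 tested had a median log2 difference of 0.07. Isg15, a ubiquitin-like protein gene, had 86.9 and 96.4 in non-deprived and 195 and 242.8 in deprived cortex, a log2 difference of 0.87 ± 0.53 (SE, adjusted p = 0.987 in limma). Ifitm2 was also higher on both deprived arrays (0.56 ± 0.52), Gbp3 was lower on both (-0.60 ± 0.56), and Ifitm3 gave 0.08 ± 0.27. Isg15 and Ifitm2 reached the filter through the deprived arrays alone and Gbp3 through the non-deprived arrays alone. The MHC class II list had 4 tested genes of 9, with a median of -0.01. H2-Eb1, a class II beta chain gene, gave 0.57 ± 0.53, Ciita, the class II transactivator gene, -0.44 ± 0.52, Cd74, the invariant chain gene, -0.14 ± 0.37 and H2-DMa 0.12 ± 0.30.

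The proteasome beta subunits and activators had 11 tested genes, 6 higher and 5 lower, with a median log2 difference of 0.04. Psme1, a subunit of the interferon-inducible proteasome activator, had 270.4 and 362.1 in non-deprived and 477.4 and 453 in deprived cortex, a log2 difference of 0.49 ± 0.29 (SE, adjusted p = 0.984 in limma). Psmb6, the standard subunit that Psmb9 replaces, had 941.8 and 1197 in non-deprived and 859.6 and 724.5 in deprived cortex, a log2 difference of -0.40 ± 0.21 (adjusted p = 0.954). Psmb1 gave 0.30 ± 0.18 and Psmb4 0.17 ± 0.16. Psmb10 gave 0.04 ± 0.19 and Psmb5 0.06 ± 0.20, both with overlapping groups. The groups did not overlap for 4 of the 11 genes, beside 32.2% of all tested probe sets; Psme1, Psmb1 and Psmb4 were higher and Psmb6 lower on both deprived arrays. The endoplasmic reticulum chaperones, with 8 tested genes, had a median of -0.00012. Sec61a1 gave -0.26 ± 0.22, Hsp90b1 0.12 ± 0.16, Pdia3, a partner of tapasin, -0.11 ± 0.23 and Uggt1 -0.25 ± 0.59. Other class I and class I-like genes had 7 tested of 15 on the array, with a median of 0.16. H2-Q10 gave -0.57 ± 0.40, H2-M9 0.27 ± 0.25, H2-M1 0.69 ± 0.67 and H2-M2 0.16 ± 0.31.

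Cells other than neurons express class I genes, and in bulk tissue fewer cells of a type and less RNA per cell cannot be told apart. The summed signal of 12 microglia markers lay at 8213 and 7510 in non-deprived and 7441 and 7881 in deprived cortex, and that of 10 endothelial markers at 2426 and 3106 against 2822 and 2710; the groups overlapped for both. The 9 markers of T, B and NK cells summed to 1436 and 865 against 1958 and 778. They were high on the arrays numbered 1, as Tap1, H2-K1 97700_at and several other member probe sets were. The 25th percentile of all signals was also higher on the arrays numbered 1, at 72.2 (non-deprived) and 85.1 (deprived). On the arrays numbered 2 it was 53.8 and 51.0, so the order is not particular to these genes. Below the filter were 6 of these markers, Cd3e and Cd3d among them. The sum of the oligodendrocyte markers was higher on both deprived arrays, at 14687 and 13498 against 12270 and 11169. Of its 6 tested genes 5 were higher, beside 3747 of all 7458 tested probe sets. Only 3 of the 6, Mobp, Mog and Cldn11, were higher on both deprived arrays, beside 15.1% of all tested probe sets. Markers of the striatum, thalamus and hippocampus summed to 3638 and 2718 against 2711 and 2469, with deprived array 2 level with non-deprived array 1. All 5 tested genes of this list were higher in deprived cortex, with a median log2 difference of 0.18. Of these, 1, Penk, was higher on both deprived arrays, beside 15.1% of all tested probe sets. No marker passed the threshold in the main fit. The neuron marker Map2 did with the replicate block (adjusted p = 0.037 in limma, 0.199 without it). However, Map2 was tested only because of the group in which it was high, so its values are descriptions. The part of these markers in the class I values was not tested. All 8 neuron markers on the array were tested, 6 lower and 2 higher in deprived cortex. Their summed signals, in which bright genes weigh most, overlapped, at 45434 and 49685 in non-deprived and 40426 and 48708 in deprived cortex. The groups did not overlap for 3 of the 8, Snap25, Nefl and Map2, beside 32.2% of all tested probe sets. Each of these was lower in deprived cortex. Nefl gave -0.68 ± 0.21 (SE). Map2 had 413.4 and 604.8 in non-deprived and 85 and 119.6 in deprived cortex, a log2 difference of -1.79 ± 0.39 (SE). Map2 reached the filter through the non-deprived arrays alone.

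**Figure D5:**
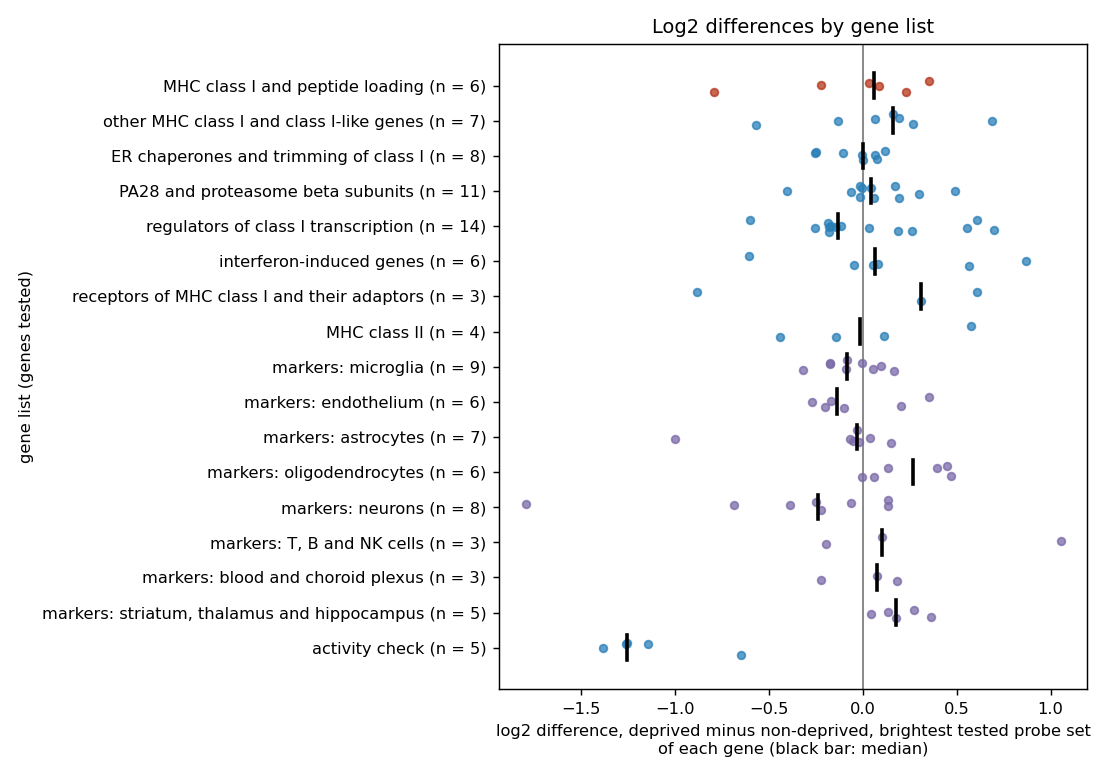
Log2 difference of deprived minus non-deprived cortex for the brightest tested probe set of each gene, by list (red for the class I members, blue for other lists, purple for cell type markers), with the median of each list as a black bar. The class I members lie on both sides of 0 with a median of 0.06 over 6 genes, and the 5 activity genes all lie below -0.6.

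Genes that neurons switch on when they fire were read on the same arrays. They were chosen with earlier results of these data known, so they are no independent check of the labels. All 5, Fos, Junb, Egr2, Nr4a1 and Egr1, were lower on both deprived arrays, beside 17.1% of all tested probe sets. Their median log2 difference was -1.26. Fos and Junb passed the threshold (adjusted p = 0.020 and 0.030 in limma), beside 0.107% of all tested probe sets. With the replicate block Egr2 and Nr4a1 passed as well (adjusted p = 0.004 for each in limma, 0.063 without the block), beside 0.536%. Fos fell from 3019 and 3568 to 1107 and 1352, a log2 difference of -1.38 ± 0.18 (SE). The standard error of B2m, 0.21, and of H2-K1 93120_f_at, 0.19, was close to that of Fos, whereas those of Tap1 103035_at and H2-K1 97700_at were over 3 times as large. These standard errors are from the fit without the block. With the replicate block those of Tap1 103035_at and H2-K1 97700_at were smaller, at 0.39 and 0.48.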

How the data were processed

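The deposited values are MAS5 signal intensities on a linear scale, made by the authors, per the submitters' processing notes. Its version and target signal are not given in the sources used here. Before scaling, the mean after 2% trimming was between 500.28 and 500.36 on the 4 arrays. Arrays were scaled to a common 2% trimmed mean, the 20th percentile of the mean signals (60.6) was added, and probe sets under the 40th percentile (142.9) and 66 controls were left out. limma 3.58.1 in R 4.3.3 (lmFit, eBayes with a variance trend) had 2 residual degrees of freedom, 11.6 with the prior, and was tested on simulated data. Of the probe sets, 10855 had 1 symbol, 396 had several and 1237 had none in the annotation table, and 10839 of the 10855 matched RefSeq by Entrez identifier. The design text speaks of added cross-animal comparisons, which implies that same-numbered arrays are paired, though this is not stated outright. Their deviations correlated at r = 0.27. The main fit did not use the pairing, so standard errors, intervals and p-values are unpaired unless the block is named. A blocked fit was run as an alternative. Members and gene lists were chosen with earlier results of these data known, and the motif lengths were set after matches had been seen. Named genes are all members, the genes of smallest p (up to 4) of each pathway list, and the activity genes; other genes named as examples were chosen after their values were seen. Probe sequences and positions were not analysed here. The number of arrays limits the precision.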

Additional observations from a re-analysis of the deposited data

How the results depend on the processing

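No member probe set passed the adjusted threshold under any of the 12 other settings run in limma or at a looser adjusted p of 0.2. The count of 8 over all probe sets became 3 with arrays scaled to a common median, 1 after quantile normalization, 40 with the replicate block and 0 without the variance trend (390 at an unadjusted p under 0.05), and 5 to 90 with 1 array left out. The count of member probe sets at least 1.5-fold apart in all 4 pairs, 0, became 1 without the filter (Psmb8) and 1 at 1.2-fold, and 0 to 1 with 1 array left out (the 1 was H2-M3 without non-deprived array 1). The members' median of -0.04 ran from -0.39 without deprived array 1 to 0.24 without deprived array 2. Of 116 values of single member probe sets under these settings, 106 kept their sign and 10 reversed, all with 1 array left out. Without non-deprived array 1 these were B2m (-0.16), H2-K1 97700_at (0.63) and Tapbp 102689_at (0.05). Without deprived array 1 they were H2-D1 97540_f_at (-0.12) and Tap1 (-0.69). Without non-deprived array 2 they were Tap1 (-0.60) and Tapbp 162104_f_at (0.05). Without deprived array 2 they were H2-K1 97700_at (0.74), Tapbp 102689_at (0.34) and Tapbp 162104_f_at (0.056). With 1 array left out, the single array of its side is taken to vary as the other side does; otherwise the cause was not tested. Over the arrays left out in turn, the full ranges were -0.16 to 0.33 for B2m, -0.12 to 0.58 for H2-D1 97540_f_at, -0.95 to 0.74 for H2-K1 97700_at, -0.69 to 0.76 for Tap1, -0.78 to 0.34 for Tapbp 102689_at and -0.34 to 0.056 for Tapbp 162104_f_at. Those that kept their sign ran from -1.41 (without non-deprived array 1) to -0.17 (without non-deprived array 2) for H2-M3 102731_g_at, from 0.10 (without deprived array 2) to 0.34 (without deprived array 1) for Tapbp 100154_at, from -0.44 (without deprived array 1) to -0.21 (without deprived array 2) for H2-D1 101886_f_at and from 0.29 to 0.42 for H2-K1 93120_f_at. The replicate block changed no call of a member, with 0.531 as the lowest adjusted p.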
